A study of Mus musculus with 3 samples.

Results

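The 9 genes described here encode the FOXO, FOXP and FOXK forkhead transcription factors, Foxo1, Foxo3, Foxo4, Foxo6, Foxp1, Foxp2, Foxp4, Foxk1 and Foxk2. They were taken by symbol from the 50600 genes of the deposited tables. The rule used no measured value, but it was set with earlier results of these data known, and it left out Foxp3. RNA was read in 3 libraries of T cells, primary cells of mouse strain C57BL/6NJ, which the labels number as biological replicates 2, 3 and 4. The labels give an unknown age, no sex, no treatment and 1 donor identifier for all 3, and the names of the alignments in the file headers add Th0, activated and 0 h. All libraries belong to 1 group, so the values below are levels and differences among libraries. The labels do not say whether the libraries came from separate animals. By its sex-linked genes, given below, replicate 2 did not come from the same animal as replicates 3 and 4, whereas the spread between replicates 3 and 4 may be technical. A p-value measures only the spread among these 3 libraries.

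Forkhead factors bind DNA through a shared domain of winged helix shape. FOXO factors act at the end of the PI3K pathway: when a growth factor or antigen receptor activates the kinase AKT, FOXO proteins are phosphorylated, held by 14-3-3 proteins and kept out of the nucleus, and their targets fall. In naive T cells FOXO1 is known to sustain genes of homing and survival and FOXP1 to maintain quiescence. FOXK1 and FOXK2 are known from other cell types, such as muscle, to repress autophagy genes and direct glucose use. Transcript levels do not show where these proteins are in the cell.

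To show how alike members are where their reads could be confused, 7 of them were compared over the 60-base coding stretch of Foxo1 with the fewest differences from the other 6, which was found by comparing windows in frame, without gaps, after the files had been seen. The sequences come from GENCODE M21 transcripts (mm10), are written 5′ to 3′ along the gene, and have capitals at bases that differ from Foxo1. The coordinates run from the first to the last base and include 1 intron.
Foxo1, chr3:52269396-52345071, plus strand: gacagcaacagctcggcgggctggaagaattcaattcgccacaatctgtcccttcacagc
Foxo3, chr10:42197869-42274842, minus strand: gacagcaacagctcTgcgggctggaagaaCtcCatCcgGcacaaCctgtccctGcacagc
Foxo4, chrX:101255247-101258209, plus strand: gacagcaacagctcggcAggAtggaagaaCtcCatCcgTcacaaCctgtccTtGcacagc
Foxo6, chr4:120269150-120286865, minus strand: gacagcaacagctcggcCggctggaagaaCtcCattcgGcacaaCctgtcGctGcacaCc
Foxp4, chr17:47871319-47874661, minus strand: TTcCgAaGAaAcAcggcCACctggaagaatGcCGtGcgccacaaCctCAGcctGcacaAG
Foxk1, chr5:142450361-142451471, plus strand: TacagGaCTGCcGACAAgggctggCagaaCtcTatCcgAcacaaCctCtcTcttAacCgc
Foxk2, chr11:121290864-121296061, plus strand: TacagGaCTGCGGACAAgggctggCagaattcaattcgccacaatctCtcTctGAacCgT
In all 7 genes the intron interrupted this stretch after base 27. Of its 60 bases, 24 were the same in the 7 genes. Identity was between 85.0 and 91.7% for the 7 pairs within a subfamily and between 50 and 68.3% for the 14 pairs across subfamilies. The pairs within a subfamily were 6 of FOXO and 1 of FOXK genes. Foxp1 and Foxp2 were not included, so no FOXP pair was compared. Whether members share 50-base words with each other on the same strand was not tested. Whether reads of that length would tell the members apart is therefore not known from these values. Of the 50-base words of each member's annotated transcripts, some occurred on either strand in genes outside the 9. The share was 6.8% for Foxo1, 2.42% for Foxp1, 0.324% for Foxp2 and 0.146% for Foxk1. For Foxo3, Foxo4, Foxo6, Foxp4 and Foxk2 none did. The read length is not given in the sources used here.

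Gene counts summed to between 28340521 and 59698913 per library. Levels are given as TPM, counts divided by the summed exon length and scaled to the same total in each library, and a gene counts as detected when none of its 3 values is below 1 TPM. All 10 T cell markers were detected, with a summed level between 10626 and 10696 TPM. The 8 B cell markers summed to between 39.1 and 56.6 TPM, with 7 detected and Ebf1 below 1 TPM. The 8 myeloid markers summed to between 6.27 and 9.61 TPM (2 detected, Cd14 at 0), and the 8 stromal, endothelial and epithelial markers to between 3.44 and 3.61 TPM (1 detected, Col1a2, Pdgfra and Krt8 at 0). Replicate 2 stood apart in all 5 sex-linked genes: Xist, transcribed from the inactive X chromosome of females, was at 151, 0.221 and 0.399 TPM in replicates 2, 3 and 4, and the Y-linked Ddx3y at 0.248, 80.0 and 72.3 TPM. Replicate 2 thus had the pattern of female cells and replicates 3 and 4 that of male cells. In such bulk samples fewer cells that carry a transcript and less of it per cell cannot be told apart.

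Of the 9 members, 7 were detected, against 46.1% of protein-coding genes and 23.4% of all genes. The highest was Foxk1 at 196 ± 4.21 TPM (SD, n = 3), then Foxo1 at 177 ± 3.96, Foxp4 at 95.9 ± 9.54, Foxp1 at 82.1 ± 4.70, Foxo4 at 63.4 ± 4.95, Foxo3 at 62.5 ± 4.40 and Foxk2 at 48.7 ± 3.07 TPM. All 7 stood above the median detected protein-coding gene, 33.4 TPM. The remaining Foxo6 and Foxp2 were at the counting floor. Summed TPM was 302 ± 12.9 for FOXO, 244 ± 7.19 for FOXK and 178 ± 4.85 for FOXP without Foxp3.

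**Figure D1:**
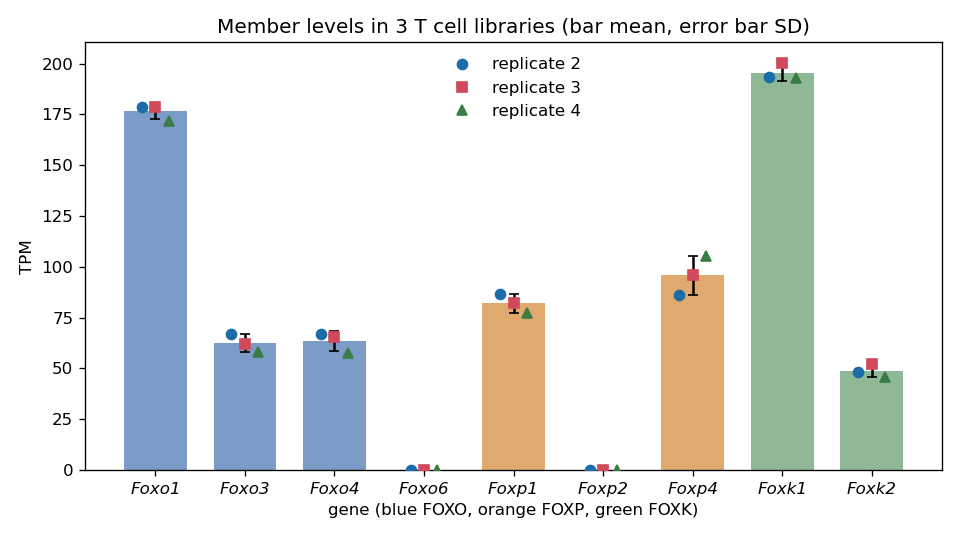
TPM of the 9 members on a linear axis, with bars at the mean, error bars of 1 SD over 3 libraries and 1 symbol per library. Foxk1 and Foxo1 lie between 172 and 200.4 TPM in every library, the other 5 detected genes between 46.0 and 105 TPM, and Foxo6 and Foxp2 at the axis.

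FOXO1 is the main FOXO factor of lymphocytes. Its gene (ENSMUSG00000044167.6, chr3:52268336-52353221, plus strand, 3 exons, 8665 exonic bases) had 20411, 25791 and 11882 counts in replicates 2, 3 and 4, or 179, 179 and 172 TPM. The 3 libraries were nearly level, with a coefficient of variation of 2.24% against 0.757% from counting alone, and the mean exceeded that of 90.7% of detected protein-coding genes. Foxo1 made up 58.4 ± 1.28% of FOXO transcripts.

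Foxo3 (ENSMUSG00000048756.11, chr10:42181841-42276755, minus strand), whose product drives death and stress genes in many tissues, was at 67.0, 62.2 and 58.3 TPM. Foxo4 (ENSMUSG00000042903.8, chrX:101254528-101260873, plus strand), an X-linked member, was at 67.1, 65.4 and 57.8 TPM. The ranges of these paralogs overlapped almost fully, and they held 20.6 ± 0.671% and 20.9 ± 0.767% of FOXO transcripts. Foxo4 minus Foxo3 was 0.02 ± 0.05 on the log2(TPM + 0.1) scale, and the sign differed among libraries (exact two-sided sign-flip permutation p = 0.75). Counts pooled over the libraries and corrected for length gave a ratio of 1.02 (95% exact interval, 0.995 to 1.05).

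Foxo1 exceeded Foxo4 by 1.48 ± 0.08 on the same scale, and it was higher than Foxo3 and Foxo4 in 3 of 3 libraries. The pooled ratios were 2.81 (2.77 to 2.86) to Foxo3 and 2.76 (2.69 to 2.82) to Foxo4. These intervals, like all those given here, cover counting error only.

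Foxo6 (ENSMUSG00000052135.8, chr4:120267079-120287349, minus strand), best known from the brain, had 0, 4 and 0 counts. All 4 came from replicate 3, and over the 3 libraries 3 counts amount to 0.0304 TPM, so Foxo6 lay at the floor of this depth.

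Among the FOXP genes, whose products bind DNA as pairs and mostly repress, Foxp1 and Foxp4 were expressed together. Foxp1 (ENSMUSG00000030067.17, chr6:98925338-99522721, minus strand) was at 86.8, 82.0 and 77.4 TPM. Foxp4 (ENSMUSG00000023991.16, chr17:47867133-47924645, minus strand) was at 86.2, 96.2 and 105 TPM in replicates 2, 3 and 4. The pair was level in replicate 2, and Foxp4 was the higher in replicates 3 and 4.

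Foxp4 minus Foxp1 was 0.22 ± 0.23 on the log2 scale, a difference within the spread between libraries (exact two-sided sign-flip permutation p = 0.5). Which gene was the higher also turned on the length used. The deposited length of Foxp1, 13751 bases over 34 exon entries, joins the exons of many isoforms, and the longest of its 31 transcripts in GENCODE M21 has 7177 bases. With the longest transcript of each gene as length, the mean of Foxp1 was 125 TPM and that of Foxp4 93.9 TPM, and the difference became -0.42. The isoforms in these cells cannot be read from gene counts.

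**Figure D2:**
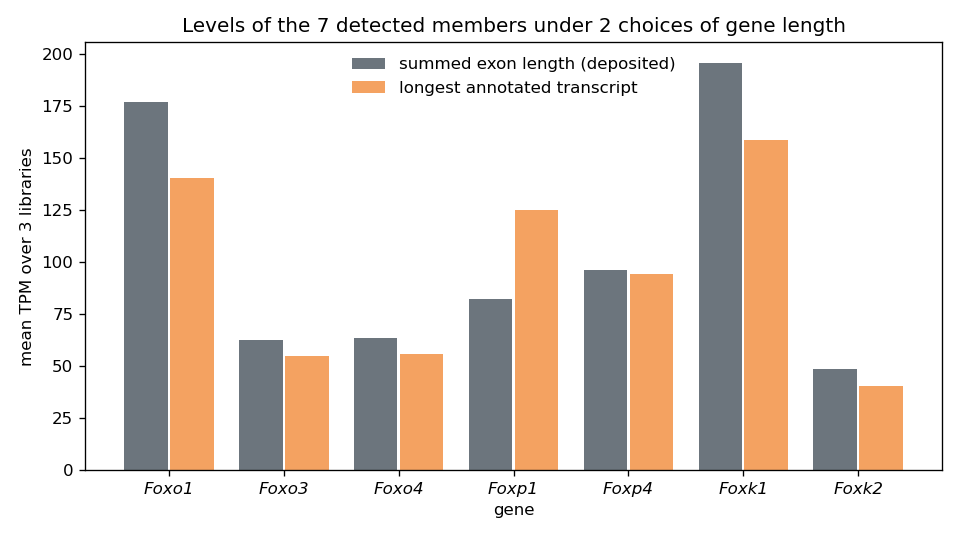
Mean TPM over 3 libraries of the 7 detected members on a linear axis, with the deposited summed exon length (grey) and with the longest annotated transcript (orange). Foxp1 goes from 82.1 to 125 TPM and passes Foxp4, whereas Foxk1 and Foxo1 stay the highest under both lengths.

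Foxp2 (ENSMUSG00000029563.16, chr6:14901349-15441977, plus strand), known for its part in neural circuits, had 0, 2 and 1 counts, against a floor of 0.00486 TPM for 3 pooled counts. Its exons sum to 16346 bases, the most of the 9. Foxp1 exceeded it in pooled counts per length by a ratio of 17028 (95% exact interval, 5826 to 82571).

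FOXK factors are broadly expressed and recruit the SIN3 corepressor. Foxk1 (ENSMUSG00000056493.9, chr5:142401497-142462011, plus strand) was at 193, 200.4 and 193 TPM, a coefficient of variation of 2.15%. Foxk2 (ENSMUSG00000039275.9, chr11:121259990-121309896, plus strand) was at 48.2, 52.0 and 46.0 TPM. The paralogs did not overlap in any library, Foxk1 held 80.1 ± 0.686% of FOXK transcripts, and it exceeded Foxk2 by 2.00 ± 0.06 on the log2 scale (pooled ratio 3.98, 3.89 to 4.06).

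Foxk1 also exceeded Foxo1, its neighbour in the order, by 0.15 ± 0.03 in 3 of 3 libraries. Over all 36 pairs of members, 33 had 1 sign in every library and a mean difference above 2 SD. The exceptions were Foxp4 with Foxp1, Foxo4 with Foxo3, and Foxo6 with Foxp2, each a pair of neighbours. With 3 libraries the exact two-sided sign-flip permutation test cannot go below p = 0.25, the value of those 33 pairs (Benjamini-Hochberg adjusted p = 0.273 over 36), so no order could pass 0.05.

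No member was called as varying among the libraries. By edgeR's goodness of fit, which sets a gene's spread against that of genes of like abundance, 0 of the 7 members with enough counts passed an adjusted p of 0.05, and 0 passed an unadjusted 0.05. Over all 13498 genes tested, 0.533% passed the adjusted and 4.1% the unadjusted threshold. The lowest unadjusted p was that of Foxp4, 0.0792 (adjusted p = 1.0), with a range of 0.34 in log2 CPM (counts scaled to a common library size) between replicates 2 and 4. Without replicate 3 its unadjusted p was 0.0133 (edgeR, adjusted p = 0.927). The ranges of the other 6 lay between 0.02 for Foxo1 and 0.16 for Foxo4, where the median was 0.11 over the 6585 genes whose mean count reached 1000. Foxo1 and Foxk1 fell below that median. The X-linked Foxo4 was at 67.1 TPM in replicate 2, of female pattern. It was at 65.4 and 57.8 TPM in replicates 3 and 4, of male pattern, and a difference with sex was not tested.

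The genes nearest to Foxo1 in their differences among libraries were Eloa, with a root mean square difference of 0.000241 in log2 units, and Nfkbie, with 0.000936. For Foxp1 they were Ssu72 and Zfp707, at 0.000612 and 0.000667, and for Foxk1 Tsen34 and Celf2, at 0.000401 and 0.000834. A profile over 3 libraries separates few genes: of 9575 protein-coding genes compared, 3889, 2529 and 3395 lay within 0.05 of Foxo1, Foxp1 and Foxk1.

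Among 34 other forkhead genes, which do not include Foxp3, 6 were detected and 22 had 0 counts in all libraries. Of protein-coding genes 46.1% were detected. Foxj2 was the highest at 75.5 ± 2.95 TPM, within the range of the members, followed by Foxn3 at 54.3 ± 6.54, Foxn2 at 47.0 ± 0.476 and Foxj3 at 25.9 ± 1.65 TPM. Foxm1, a factor of dividing cells, was at 4.21 ± 0.0563 TPM and Foxd2 at 1.99 ± 0.265 TPM. The 9 members held 77.6 ± 0.340% of the summed TPM of these 43 genes, a sum without Foxp3.

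**Figure D3:**
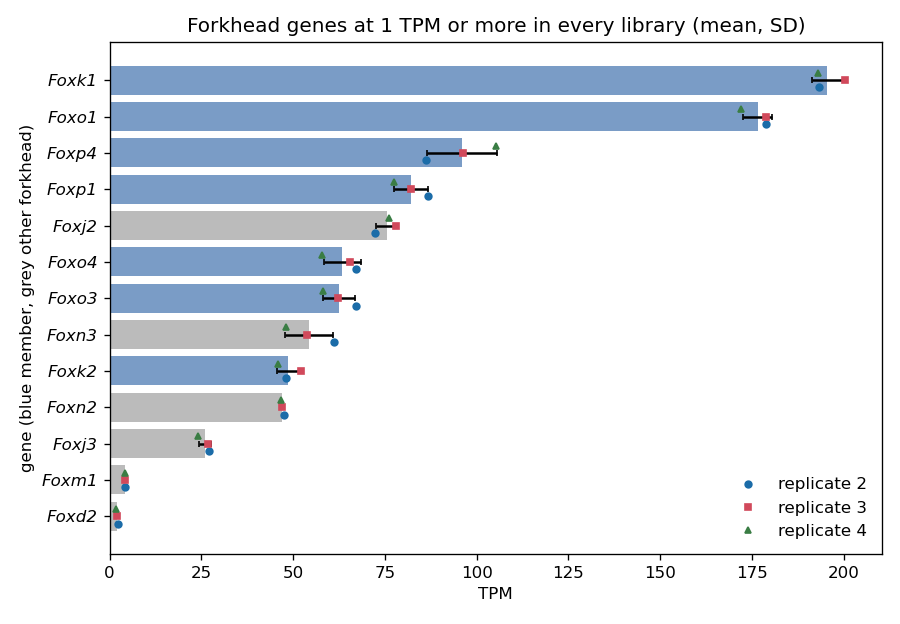
TPM on a linear axis of the 13 forkhead genes detected among those listed, with Foxp3 left out. Bars are at the mean, error bars are 1 SD, and each library has 1 symbol. Members are in blue and other forkhead genes in grey. The 4 highest are members, and Foxj2 at 75.5 TPM leads the others.

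Transcripts were detected for every gene listed of the upstream arm that holds FOXO factors out of the nucleus. All 12 genes of the PI3K and AKT list were detected, against 46.1% of protein-coding genes, with a median of 61.0 ± 1.10 TPM. They were led by Pik3cd, the leukocyte catalytic subunit of PI3K, at 785 ± 26.2 TPM and by Akt1 at 147 ± 3.79 TPM, followed by the regulatory subunit gene Pik3r1 at 88.5 ± 5.81 and Akt2 at 82.5 ± 0.484 TPM. All 8 genes of 14-3-3 proteins and nuclear export were detected, with Ywhab at 299.5 ± 14.7, Ywhaz at 256 ± 14.1, Ywhae at 189 ± 9.69 and Sfn at 122 ± 5.90 TPM. None of these 20 genes passed the goodness of fit, at the adjusted or the unadjusted threshold. So few genes could show little here, since 0.533% and 4.1% of all genes tested passed.

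Genes that oppose that arm, and genes of enzymes that activate or modify FOXO proteins, were also present, again beside a detected share of 46.1% among protein-coding genes. Of the 5 lipid phosphatase and AKT phosphatase genes, all detected, Inpp5d (SHIP1) stood at 128 ± 6.83, Inpp4b at 115 ± 6.74 and Phlpp1 at 9.16 ± 0.412 TPM. Stk4, whose kinase MST1 activates FOXO proteins, was at 453 ± 13.3 TPM and led its list, in which 5 of 6 were detected. It was followed by the AMPK subunit gene Prkaa1 at 43.4 ± 1.88, Mapk9 at 31.7 ± 1.91 and Mapk8 at 12.5 ± 0.958 TPM, and Prkaa2 had 0 counts. All 10 genes of enzymes that modify FOXO proteins were detected, with the deubiquitinase gene Usp7 at 157 ± 1.84, Prmt1 at 93.3 ± 4.99 and the acetyltransferase genes Ep300 at 84.4 ± 1.67 and Crebbp at 75.4 ± 1.41 TPM. Skp2, a ubiquitin ligase gene named after its values were seen, was at 1.66, 2.49 and 1.43 TPM (edgeR goodness of fit, unadjusted p = 0.0312, adjusted p = 1.0).

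Of 43 FOXO target genes in 6 lists, 36 were detected, or 83.7% against 46.1% of protein-coding genes. In the lymphocyte list 9 of 11 were, with a median of 530 ± 19.6 TPM. Tcf7, a factor of naive T cells, led at 2947 ± 117 TPM, then the lymph node homing receptor gene Ccr7 at 1051 ± 37.6, the interleukin 7 receptor gene Il7r at 679 ± 171 and Klf2 at 649 ± 28.0 TPM. The recombinase genes Rag1 and Rag2, FOXO targets of developing B cells, had 0 counts.

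**Figure D4:**
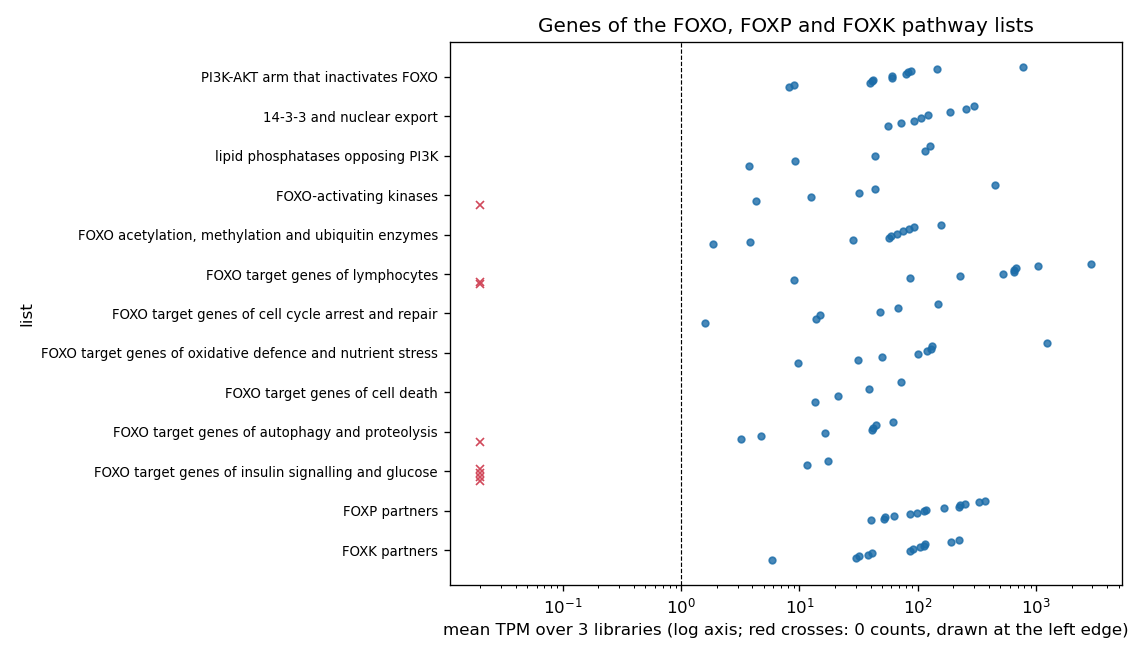
Mean TPM over 3 libraries on a log axis of each gene in the 13 pathway lists, 1 point per gene, with the dashed line at 1 TPM and red crosses at the left edge for genes with 0 counts. The lymphocyte targets reach 2947 TPM, whereas 4 of the 6 insulin and glucose targets have 0 counts.

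Targets of cell cycle arrest and repair were all detected, 6 of 6, with Cdkn1b, which encodes the cell cycle inhibitor p27, at 150 ± 10.4, Rbl2 at 67.8 ± 5.48, Ccng2 at 47.9 ± 7.22 and Gadd45b at 14.9 ± 2.85 TPM. So were the 8 of oxidative defence and nutrient stress, led by Txnip, an inhibitor of glucose uptake, at 1242 ± 46.5 TPM, with Pink1 at 133 ± 11.4, the catalase gene Cat at 130 ± 10.3 and Sesn1 at 120 ± 17.4 TPM. In the autophagy and proteolysis list 7 of 8 were detected, with Atg12 at 62.2 ± 4.16, Ulk1 at 44.7 ± 2.39, Map1lc3b at 41.9 ± 1.87 and Ulk2 at 40.9 ± 2.48 TPM, and the muscle gene Trim63 had 0 counts. In the insulin and glucose list Insr was at 17.3 ± 1.14 and Irs2 at 11.6 ± 0.774 TPM. Its other 4 genes, Pdk4, G6pc, Pck1 and Igfbp1, best known from liver and muscle, had 0 counts.

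The 4 cell death targets were detected, with Bbc3, which encodes PUMA, at 72.3 ± 26.6, Bcl2l11, which encodes BIM, at 38.8 ± 4.63, Tnfsf10 at 21.3 ± 1.72 and Fasl at 13.5 ± 1.20 TPM. Bbc3 and Il7r were the only FOXO targets of the 36 tested to pass the goodness of fit, against 0.533% of all genes tested. No FOXO gene passed, but too few were tested to set them against their targets. Bbc3 was at 103, 58.5 and 55.3 TPM in replicates 2, 3 and 4 (edgeR, adjusted p = 2.02e-05). Il7r was at 875, 607 and 556 TPM (edgeR, adjusted p = 0.0449). Replicate 2 was the high library for both genes, above replicates 3 and 4, which lay close to each other.

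Foxo1 was at 179 TPM in both replicates 2 and 3, and whether its profile differs from those of Bbc3 and Il7r was not tested. Both calls were lost without replicate 2 (adjusted p = 1.0). That of Il7r was also lost without replicate 3 (0.178) or 4 (0.393), under a common dispersion (0.0781), with no count minimum (0.0546) and with a minimum of 50 (0.0612). Scaling over all genes with another estimate of the dispersion trend, tried first on these data, gave 0.00269 for Il7r and 3.2e-06 for Bbc3. The adjusted p of Il7r thus ran from 0.00269 to 1.0 over the alternatives. Replicate 2 is also the library set apart by sex-linked genes, and the part of that difference in these values was not tested. Of the 36 targets, 61.1% had their highest TPM in replicate 2, as had 43.4% of all genes tested and 4 of the 7 members. One of those members, Foxo1, was nearly tied, at 178.89 TPM against 178.79 in replicate 3, and its log2 CPM was highest in replicate 3.

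**Figure D5:**
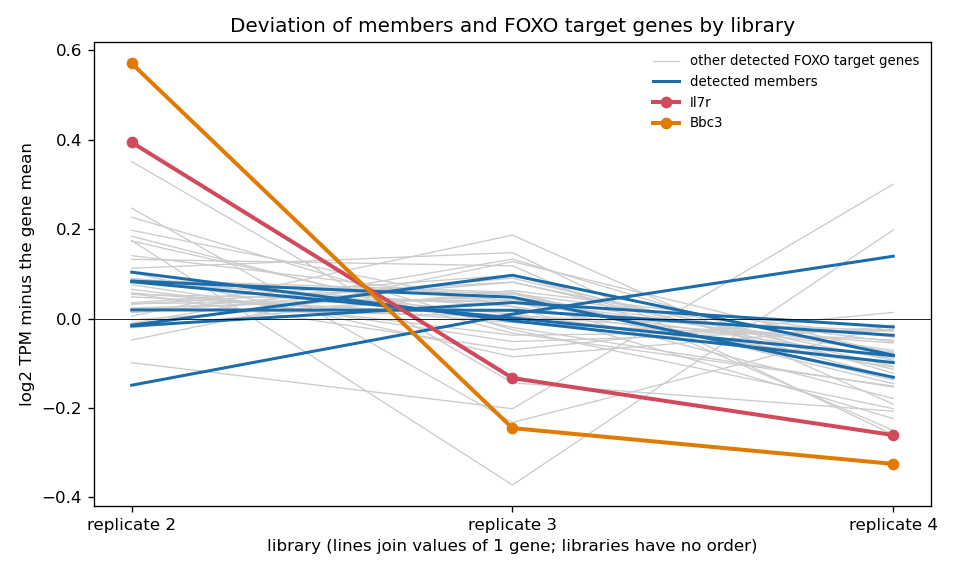
Log2 TPM minus the gene's mean over 3 libraries, with 1 line per gene, for the 7 detected members (blue), Il7r (red), Bbc3 (orange) and the other detected FOXO targets (grey). Il7r and Bbc3 are high in replicate 2, at 875 and 103 TPM, and the member that departs most is Foxp4, low in replicate 2 at 86.2 TPM and high in replicate 4 at 105 TPM.

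To show what a forkhead site looks like beside these targets, the spellings GTAAACA and ATAAACA and their reverse complements TGTTTAC and TGTTTAT were searched in RefSeq promoters (GRCm38.p6, the build of mm10), from 250 bases before to 50 after each start site. They occurred in 8 of 43 promoters of FOXO targets (18.6%) and in 7.97% of all 32851 promoters. The spellings were chosen after the promoters had been looked at. Of 3 promoters of Bbc3, the target with the lowest p, 1 held a match, and that of Il7r held none. The 4 detected targets with a match before the start site, and Foxp1, the only one of 5 members in the table with a match (2 of its 3 promoters), are shown with the match in capitals, along the gene's strand.
Bbc3, chr7:16310064-16310130, plus strand: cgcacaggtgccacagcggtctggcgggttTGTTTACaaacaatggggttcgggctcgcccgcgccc
Bcl2l11, chr2:128125788-128125847, plus strand: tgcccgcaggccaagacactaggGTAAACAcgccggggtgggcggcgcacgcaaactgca
Txnip, chr3:96557806-96557872, plus strand: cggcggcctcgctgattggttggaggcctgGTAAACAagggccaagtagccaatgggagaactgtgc
Gabarapl1, chr6:129533067-129533133, plus strand: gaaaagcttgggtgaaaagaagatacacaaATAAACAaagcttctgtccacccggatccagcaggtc
Foxp1, chr6:99521049-99521115, minus strand: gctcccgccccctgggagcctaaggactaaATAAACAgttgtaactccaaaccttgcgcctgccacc
Foxp1, chr6:99266556-99266622, minus strand: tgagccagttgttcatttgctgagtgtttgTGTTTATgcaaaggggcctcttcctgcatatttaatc
A match is a description of these letters, and binding was not measured. The Bbc3 match began 167 bases before the start site, and the autophagy gene Gabarapl1 stood at 3.21 ± 0.715 TPM.

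Partners of the FOXP and FOXK factors were detected without exception, against 46.1% of protein-coding genes. The 14 FOXP partner genes had a median of 116 ± 3.68 TPM and were led by Chd4 at 373 ± 7.95 and Mta2 at 329 ± 9.39 TPM, genes of the NuRD repressor complex, then the deacetylase gene Hdac7 at 249.8 ± 11.3 and the NuRD gene Mbd3 at 228 ± 9.92 TPM. The 12 FOXK partner genes had a median of 89.1 ± 0.390 TPM, with Ogt, which encodes the enzyme that adds GlcNAc to proteins, at 225 ± 12.3, its substrate gene Hcfc1 at 193 ± 3.44, the Wnt pathway gene Dvl1 at 116 ± 5.80 and the BAP1 partner gene Asxl1 at 112 ± 3.01 TPM. None of these 26 genes passed the goodness of fit, at the adjusted or the unadjusted threshold. Over all genes tested 0.533% and 4.1% passed, so a count of 0 among so few says little.

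Genes annotated over the members added few counts. Of 8 such genes, none reached 1 TPM in every library. Antisense Gm20402 shares 674 bases with Foxo1 exons and had 3 counts, and antisense Gm15556 at Foxp4 had 1. On the strand of Foxp1, Gm20696 shares 300 exonic bases (2.18% of the Foxp1 exons) and had 44 counts, Gm49348, with 135 shared bases, had 0, and the intronic Gm20705 had 65. How many pairs in the exons shared with Foxp1 went to neither gene was not tested. Gm38034 inside Foxo1 had 8 counts, and the miRNA genes Gm22328 at Foxp1 and Gm25470 at Foxp2 had 0.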

How the data were processed

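The deposited counts are raw and whole. Per the file headers, the authors made them with featureCounts 1.4.6-p4 over GENCODE M13 exons (mm10), for read pairs with both ends aligned, on the reverse strand. How the reads were aligned is not given in the labels or headers read here. The deposited length is the sum of a gene's merged exons, per the file headers, and TPM were computed here from both. Symbols came from a name table (50376 of 50600 genes), biotypes and transcripts from GENCODE M21.

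Spread among libraries was judged with edgeR 4.0.16 (R 4.3.3): an intercept-only negative binomial model was fitted to 13498 genes averaging at least 10 counts, with a trended dispersion and TMM factors (0.988 to 1.01), and p-values of its goodness of fit were adjusted by Benjamini-Hochberg. The step was tested on simulated data. A first run scaled over all genes and estimated the trend differently. It was replaced after its calls had been seen, to follow an earlier processing of these data, and is kept as an alternative. The common biological coefficient of variation was 9.24%. Differences between members used log2(TPM + 0.1). Profile likeness used genes averaging at least 100 counts.

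The genes named were the members, genes overlapping them, the genes nearest to Foxo1, Foxp1 and Foxk1, and of each list the 4 highest, those that passed the test and up to 3 below 1 TPM. Gabarapl1, Skp2 and the 4 insulin and glucose genes at 0 counts were named after their values were seen. Members and lists were chosen with earlier results of these data known. Protein sequences were not used here. Some values and sequences are not reported here. Python 3.11.15, pandas 2.3.3 and scipy 1.17.1 were used.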

Additional observations from a re-analysis of the deposited data

How the results depend on the processing

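No member passed the goodness of fit at the adjusted threshold under DESeq2 size factors, total count scaling, a common dispersion, no count minimum, a minimum mean of 50, or without any 1 replicate, and 7 members were detected at 0.5, 1 or 5 TPM. Over all genes 72 passed, 312 under a common dispersion and between 35 and 46 without 1 replicate (35 without replicate 2, 39 without 3 and 46 without 4). With the longest transcript as length, the share of Foxo1 among FOXO transcripts was 56.0%, against 58.4%. That of Foxp1 among FOXP transcripts, Foxp3 left out, was 57.1%, against 46.2%. Counts without length correction gave 68.8% for Foxo1, 70.5% for Foxp1 and 85.3% for Foxk1. Without 1 replicate these shares stayed between 57.8 and 59.0% for Foxo1, 44.2 and 48.1% for Foxp1, and 79.7 and 80.4% for Foxk1. The number of ordered pairs was between 31 and 34 in every alternative. Of alternatives chosen after seeing the data, scaling over all genes with another trend estimate gave 66 genes and no member, and TPM without genes under 200 bases moved Foxo1 to 183 and Foxk1 to 202 TPM. A comparison of whole proteins was not run. No paired analysis was possible because there is 1 group.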
